A study of Drosophila melanogaster with 3 samples.

Results

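The mitochondrial ribosomal protein genes of Drosophila melanogaster were examined as targets of an Sp1-GFP fusion protein in chromatin immunoprecipitation and sequencing (ChIP-seq). They were taken as every protein-coding gene whose symbol starts with mRpL (large subunit) or mRpS (small subunit), which gave 73 of 13945 protein-coding genes on the main chromosome arms, 47 of the large and 26 of the small subunit, with 80 annotated transcription start sites (TSSs). The samples are 1 group of 3 biological replicates of whole wandering larvae of both sexes, in the last larval stage, whose cells hold an Sp1 transgene tagged with GFP at the C terminus, and chromatin was precipitated with anti-GFP. There is no untreated or mutant group, and each replicate was compared by the authors with 1 control alignment. Because whole animals were used, a peak is a mixture over all larval tissues, and the labels do not say in which cells the tagged protein is made.

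Mitochondrial ribosomes translate the few proteins encoded by mitochondrial DNA, which are core parts of the respiratory chain. All of their proteins are encoded in the nucleus, made in the cytoplasm and imported, so each subunit depends on many separate nuclear genes. Some of these proteins descend from the bacterial ribosome and others occur only in mitochondria. Sp1 belongs to the Sp/KLF family of zinc finger transcription factors. Mammalian Sp1 binds GC boxes and CACC boxes, and Drosophila Sp1 is known for its part in leg growth.

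Promoter sequence is shown for mRpS10, mRpS23 and mRpL23, 3 of the members with the strongest peaks, and for mRpL1, the first member by symbol with no peak in any list. Each run is the 300 bases from 250 before the outermost TSS, read in the direction of the gene from Release 6 of the genome (dm6 coordinates). Capitals mark matches on either strand to the GC box, the CACC box, the longer Sp/KLF word, the Dref element and its core, the E-box, the M1BP word and the GAGA word, whose letters are given with the word counts further on. TATAAA, the pyrimidine word and the NRF-1 word are not marked.
mRpS10, chr3R:15229415-15229714, plus strand: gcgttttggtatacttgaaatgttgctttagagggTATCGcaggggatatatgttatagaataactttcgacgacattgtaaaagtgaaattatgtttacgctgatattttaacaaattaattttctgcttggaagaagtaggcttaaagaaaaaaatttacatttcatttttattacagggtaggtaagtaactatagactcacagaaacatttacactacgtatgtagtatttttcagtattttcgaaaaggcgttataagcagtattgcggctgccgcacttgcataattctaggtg
mRpS23, chr2L:13835023-13835322, minus strand: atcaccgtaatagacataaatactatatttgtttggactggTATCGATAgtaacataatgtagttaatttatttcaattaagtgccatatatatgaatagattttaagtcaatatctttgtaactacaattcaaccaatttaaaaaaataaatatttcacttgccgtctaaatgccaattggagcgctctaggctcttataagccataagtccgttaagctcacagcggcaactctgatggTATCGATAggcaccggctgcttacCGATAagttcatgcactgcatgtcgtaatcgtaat
mRpL23, chr3L:2373655-2373954, minus strand: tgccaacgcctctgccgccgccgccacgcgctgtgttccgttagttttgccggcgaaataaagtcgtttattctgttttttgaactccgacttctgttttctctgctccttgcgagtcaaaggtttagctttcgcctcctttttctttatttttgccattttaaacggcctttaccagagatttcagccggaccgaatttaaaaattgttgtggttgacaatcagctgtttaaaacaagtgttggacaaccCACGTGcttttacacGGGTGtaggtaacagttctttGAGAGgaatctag
mRpL1, chr3R:8301190-8301489, plus strand: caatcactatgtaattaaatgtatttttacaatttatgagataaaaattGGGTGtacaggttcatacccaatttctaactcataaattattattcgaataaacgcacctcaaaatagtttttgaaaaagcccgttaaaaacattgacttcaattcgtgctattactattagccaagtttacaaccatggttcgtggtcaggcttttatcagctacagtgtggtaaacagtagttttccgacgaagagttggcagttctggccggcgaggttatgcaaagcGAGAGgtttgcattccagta
The mRpS23 window holds 2 whole Dref elements, and the mRpL23 window holds an E-box right after its outermost TSS, 22 bp upstream of the start nearest the summit, and then a CACC box and a GAGA word. The mRpS10 window has a single Dref core and no GC box, although its peak is among the strongest of all. The window of mRpL1, which has no peak, holds a CACC box and a GAGA word, so the presence of such a word did not separate it from the others.

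Of the 73 genes, 34 (46.6%, 95% Wilson interval 35.6 to 57.9) had a summit of the optimal peak set within 500 bp of a TSS, here called a promoter peak, against 27.8% of all protein-coding genes. The optimal set is the list the authors kept after comparing replicates by the irreproducible discovery rate, and it holds 8001 peaks. Among the 8001 strongest peaks of each replicate alone, promoter peaks were found at 35 members in replicate 1 (30.2% of all genes), 32 in replicate 2 (29.4% of all genes) and 29 in replicate 3 (23.7% of all genes). The replicate mean was 43.8% ± 4.11 of members and 27.8% ± 3.57 of all genes (SD, n = 3). The members' share was thus above that of all genes in every replicate, by more than the spread between replicates. Counting any pooled peak, which adds weaker ones, gave 46 members against 42.6% of all genes.

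Most of these peaks are shared with a neighbour, since another gene's TSS lay within 500 bp of the summit at 32 of 34 members. Over all genes with a promoter peak this held for 2004 of 3873. The count of members depends on how a shared peak is assigned. When each summit was credited only to the gene with the nearest TSS, the count dropped from 34 to 12 members, or 16.4%, which is below the 21.6% of all genes counted in that way. The 22 members lost were mRpL2, mRpL16, mRpL17, mRpL18, mRpL20, mRpL24, mRpL27, mRpL35, mRpL43, mRpL44, mRpL47, mRpL51, mRpL54, mRpS2, mRpS7, mRpS10, mRpS16, mRpS17, mRpS21, mRpS23, mRpS24 and mRpS31. The peak lists alone cannot tell which of the adjoining genes, if either, a peak acts on.

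The members are for the most part arranged head-to-head with another gene, meaning that the TSS of an opposite-strand protein-coding gene lies within 1000 bp upstream. This holds for 58 of the 73 members (79.5%) and for 36.2% of all genes. Head-to-head genes carried promoter peaks more often in general, at 45.8% of 5052 genes, against 17.5% of the 8804 genes with no opposite-strand start in that range and 23.6% of the 89 genes with one downstream only. Among head-to-head members 33 of 58 had a promoter peak (56.9%). Of the 15 others 1 did, mRpL19 (6.67%, Wilson interval 1.19% to 29.8%), and that interval includes the 17.5% above. Counting any pooled peak turned the order, with 7 of these 15 (46.7%) against 32.0% of the 8804 genes. Against all head-to-head genes the share of head-to-head members was higher in each replicate. It was 56.9% against 49.7% in replicate 1, 50% against 47.8% in replicate 2 and 48.3% against 38.9% in replicate 3. The interval of the 33 of 58, 44.1% to 68.8%, includes the 45.8% of all head-to-head genes. It is wide, so this count cannot show whether the members differ from genes of the same arrangement. The difference was not tested. With nearest-TSS assignment the order turned, at 19.0% of head-to-head members and 29.0% of all head-to-head genes.

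**Figure D1:**
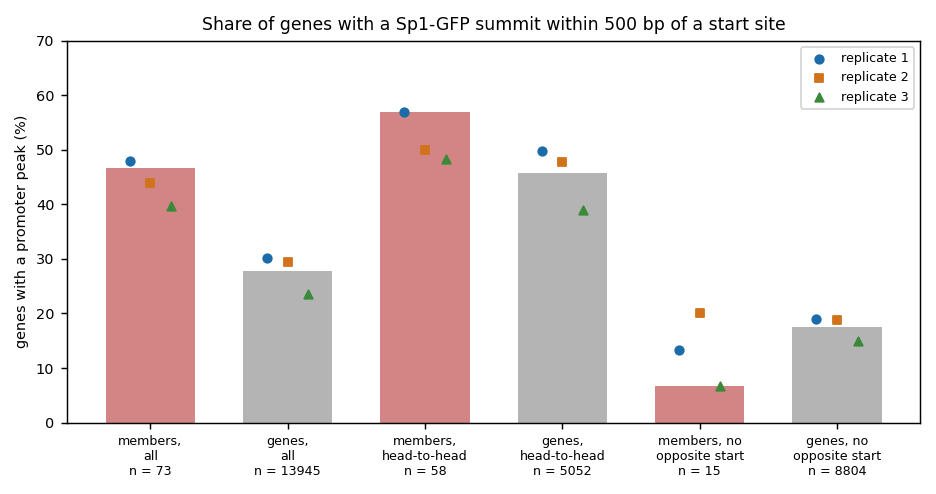
Share of genes with a promoter peak (y axis, percent), for members and for all protein-coding genes, over all genes and split by the presence of a head-to-head neighbour. Bars show the optimal set and points the 8001 strongest peaks of each replicate. In the optimal set head-to-head members reach 56.9% and head-to-head genes 45.8%. Members without an opposite-strand start in range reach 6.67% (1 of 15, Wilson interval 1.19% to 29.8%) and such genes 17.5%.

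A set of 7 members stood apart by signal, the value that the authors' caller gave each peak. Their pooled signals ran from 1780 to 8723, and the next member, mRpL2, was at 921. The lists carry no stated scaling, so replicate values below show the spread and are not amounts of binding. The strongest peak lay at mRpL41 (FBgn0034001), whose product is a large subunit protein found in mitochondria but not in bacteria. Its pooled signal was 8723, the 11th highest of the optimal set, and its replicate signals were 3685, 2113 and 3004 for replicates 1, 2 and 3, a mean of 2934 ± 789 (SD, n = 3). The peak spans chr2R:15217489-15218041, with its summit 137 bp upstream of the mRpL41 start, and the next gene upstream, CG8079, starts 762 bp away. CG8079 is the only one of the 33 head-to-head neighbours with no promoter peak. Its start lies 625 bp from the mRpL41 summit, beyond the 500 bp limit, and that summit is nearer to mRpL41.

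The next lay at mRpS10 (FBgn0038307), the relative of bacterial S10, a small subunit head protein. Its pooled signal was 7723, with 2975, 2135 and 2673 in replicates 1, 2 and 3, a mean of 2594 ± 426 (SD, n = 3). The peak spans chr3R:15229275-15229804 and its summit is 139 bp upstream of mRpS10, inside the 257 bp between its start and that of Art3, an arginine methyltransferase gene. The summit is therefore about midway, slightly nearer to Art3.

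At mRpS23 (FBgn0260407), a mitochondrion-specific small subunit gene, the pooled signal was 5828 and the replicate signals were 2089, 1633 and 2111, a mean of 1944 ± 270 (SD, n = 3). Replicates 1 and 3 were almost equal here and replicate 2 was lower. The peak spans chr2L:13835052-13835747 and its summit lay 383 bp upstream, close to the start of CenG1A, an ArfGAP gene that begins 492 bp from mRpS23.

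The relatives of the bacterial large subunit proteins L23 and L24 came next, and in bacteria both sit by the exit of the peptide tunnel. At mRpL23 (FBgn0035335, peak chr3L:2373350-2373838) the pooled signal was 4467, with replicate signals of 1585, 1121 and 1763, a mean of 1490 ± 332 (SD, n = 3). Its summit lay 60 bp downstream of the nearest of its starts, and the neighbour CG9004 begins 24 bp from the outermost of them. At mRpL24 (FBgn0031651, peak chr2L:4945250-4945718) the pooled signal was 3091, with 1120, 670 and 1335, a mean of 1042 ± 339 (SD, n = 3). The summit was 125 bp upstream, in the 218 bp shared with betaggt-I, which encodes a subunit of a protein prenyltransferase.

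At mRpL20 (FBgn0036335, peak chr3L:13017891-13018366), the relative of a bacterial protein needed for assembly of the large subunit, the pooled signal was 2550 and the replicate signals 892, 687 and 965, a mean of 848 ± 144 (SD, n = 3). At mRpS2 (FBgn0031639, peak chr2L:4850323-4850759) the pooled signal was 1780 and the replicate signals 605, 363 and 808, a mean of 592 ± 222 (SD, n = 3). Their neighbours are Icmt, a methyltransferase of prenylated proteins, and Mon1, part of a complex that activates Rab7. In all 7 of these strongest members replicate 2 gave the lowest signal, and every replicate placed the peak.

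The remaining 5 of the 12 strongest had lower signals, closer to one another. At mRpL2, whose bacterial relative lies next to the peptidyl transferase centre, the replicate signals were 336, 261 and 327, a mean of 308 ± 40.9 (SD, n = 3). The strongest summit lay at -344 bp from its start, past a start of FoxK, a forkhead factor gene, 64 bp away. A weaker optimal summit lay 145 bp from the mRpL2 start. At mRpS6 the replicate signals were 243, 258 and 394, a mean of 298 ± 83.1 (SD, n = 3), and the neighbour is Cip4, an F-BAR membrane protein. At mRpS26 they were 288, 247 and 270, a mean of 268 ± 20.5 (SD, n = 3), beside CG13698. Replicates overlap closely at these genes, so their order among themselves is not resolved. At mRpL44, whose human relative has an RNase III-like fold, replicates 1 and 2 gave 332 and 257 and replicate 3 had no summit within 100 bp; its neighbour Snr1 is a subunit of the Brahma chromatin remodelling complex. At mRpS24 the replicates gave 213, 184 and 233, a mean of 210 ± 25 (SD, n = 3), beside Apc2, a scaffold of Wnt signalling.

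**Figure D2:**
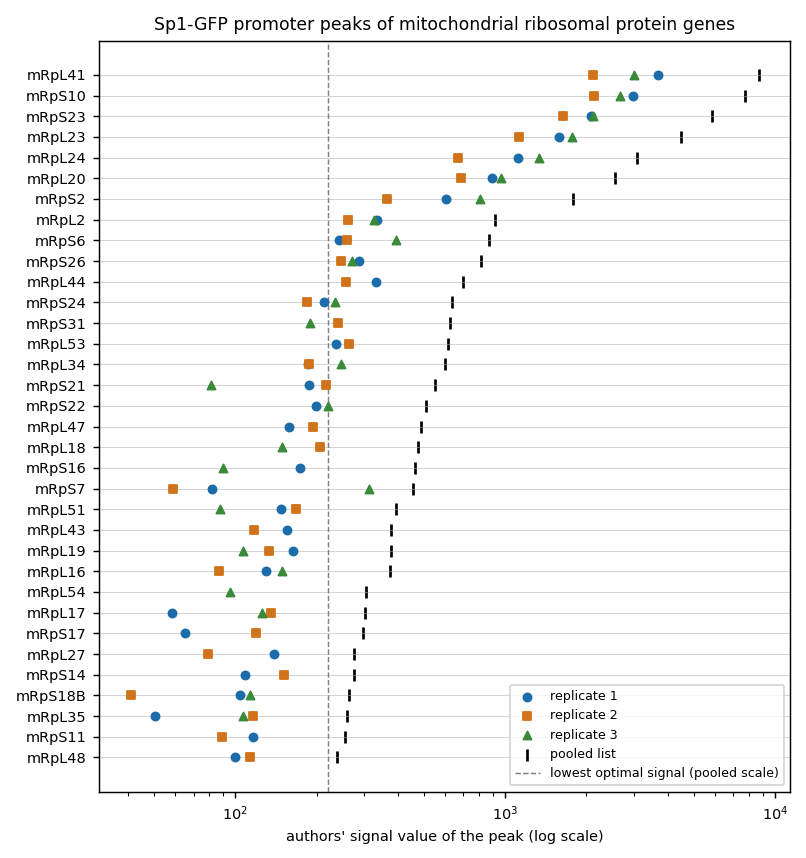
Signal of the promoter peak (x axis, log scale, the authors' signal value) at each of the 34 members with an optimal peak, ordered by the pooled list; points are replicates with a summit within 100 bp of the pooled summit and bars the pooled list. The 7 members at the top lie at 1780 or more in the pooled list, followed by mRpL2 at 921, and the lowest optimal signal, drawn as a dashed line on the pooled scale, is 220.

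The other 22 members with an optimal peak ran from 624 at mRpS31 to 237 at mRpL48. In order of signal they are mRpS31, mRpL53, mRpL34, mRpS21, mRpS22, mRpL47, mRpL18, mRpS16, mRpS7, mRpL51, mRpL43, mRpL19, mRpL16, mRpL54, mRpL17, mRpS17, mRpL27, mRpS14, mRpS18B, mRpL35, mRpS11 and mRpL48. Several share the region with genes of known function: AGO1, the Argonaute of microRNA silencing, lies by mRpL53, Dg (dystroglycan) by mRpL34, Cdk1, the mitotic kinase, by mRpS7, and trr, a histone H3 methyltransferase, by mRpL16. Taz (tafazzin, which remodels the mitochondrial lipid cardiolipin) lies by mRpL18, and Mitofilin, an organiser of inner membrane folds, lies by mRpL35, so at these 2 pairs both genes encode mitochondrial proteins. Tudor-SN adjoins mRpL17, Nop60B, the pseudouridine synthase of ribosomal RNA, adjoins mRpS17, and Ns1, a nucleolar GTPase, adjoins mRpS11. In all, 32 of the 33 head-to-head neighbours also met the promoter peak rule. This is not a separate finding, since a summit within 500 bp of both starts is counted for both genes. The median distance between the starts was 281 bp. The share for neighbours of all head-to-head genes with a peak was not computed.

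Of these 22 weaker members 9 had a summit within 100 bp of the pooled one in every replicate, and 13 lacked one in at least 1. Coefficients of variation of the 9 ran from 16.5% at mRpL34 to 92.9% at mRpS7. Of the 13, mRpS31, mRpS22, mRpL18, mRpS16 and mRpS17 had a promoter peak within 500 bp of a TSS in all 3 replicate lists. At mRpL34 the replicates gave 186, 188 and 246, a mean of 207 ± 34.2 (SD, n = 3). At mRpL51, a mitochondrion-specific protein, they gave 147, 168 and 87.8, a mean of 134 ± 41.6 (SD, n = 3). At mRpL19, the only one with no head-to-head neighbour, they gave 164, 133 and 107, a mean of 135 ± 28.3 (SD, n = 3). The levels of mRpL51 and mRpL19 thus differ by less than their spread. Wider gaps were seen at mRpS21, with 188, 217 and 81.5, where replicate 3 was low, at mRpL17, with 58.1, 136 and 125, where replicate 1 was low, and at mRpS18B, with 105, 40.9 and 113, where replicate 2 was low. By matched signal the odd replicate out was thus a different one at each. At mRpS21, though, replicate 3 also had a stronger peak of 191 at -154 bp. That peak lies outside the 100 bp match to the pooled summit at -257 bp, so the low value there depends on the match. At mRpL54 replicate 3 alone had a summit within 100 bp, at 95.2. At mRpL53 the summit lies as near to a start of CG33155, which coincides with that of mRpL53, as to the member's own, so that peak cannot be assigned to either.

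Signals of members as a group were not high. Their median in the optimal set was 498 (n = 34) against 484 over the 3873 genes with a promoter peak, and 18 of the 34 lay above the latter. The top of the list was fuller: 6 of 34 members (17.6%) were within the 500 strongest optimal peaks, against 8.86% of all genes with a peak. By the 2000 strongest the members no longer stood higher, at 29.4% against 31.5%. No test was made of these shares, since the list was chosen with earlier results known.

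Each gene is represented here by its strongest promoter summit. That summit lay upstream of the member's own start in 32 of 34 cases (94.1%), against 76.9% of all genes with a peak. At mRpL2, mRpS22 and mRpS31 a weaker optimal summit lay nearer the member's start, 145, 42 and 260 bp from it. The strongest lay at -344, -241 and -459 bp, and the values below use the latter. The median offset was -150.5 bp (quartiles -235.5 and -104.5), against -111 bp for all genes. In the strongest peaks of replicates 1, 2 and 3 the members' medians were -133, -139.5 and -164 bp and those of all genes -102, -89 and -136 bp, so the members were farther upstream in each. Of the members with a peak 97.1% were head-to-head, against 59.8% of all genes with one. Among head-to-head genes with a peak, the median offset was -155 bp for members and -123 bp for all. The upstream share and the replicate medians were not matched in this way. The distance between the starts of a member and its head-to-head neighbour ran from 20 to 762 bp, with a median of 281 bp. The summit lay between the 2 starts at 25 of the 33 pairs (75.8%), against 68.0% of all head-to-head genes with a peak. It was nearer another gene's start at 23 of 33 (69.7%), against 41.3% of such genes. The exceptions downstream of the member's own start were mRpL23, at 60 bp, and mRpS14, at 38 bp.

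**Figure D3:**
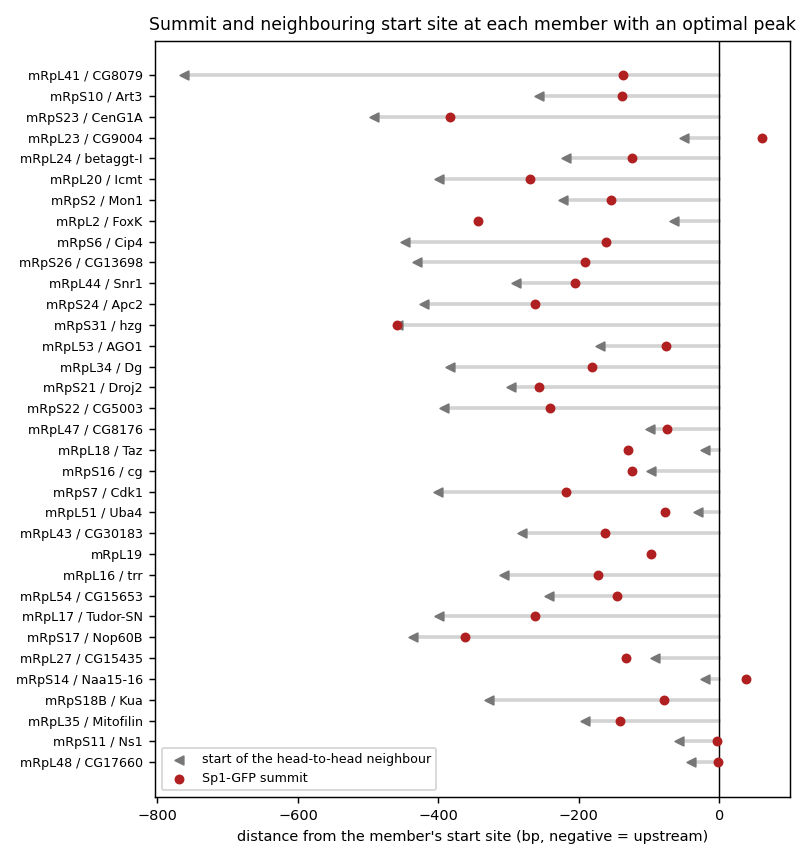
Position of the strongest promoter summit (red) and of the head-to-head neighbour's start (grey arrowhead) relative to the nearest TSS of each member (x axis, bp, negative is upstream), with members in order of signal and the neighbour named after the slash. At 32 of 34 members the summit is upstream of the member's own start, and mRpL19 has no neighbour drawn because none starts within 1000 bp upstream on the opposite strand.

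Replicates did not place every member's peak. A summit within 100 bp of the pooled one was present at 31 of 34 members in replicates 1 and 2 and at 25 in replicate 3, or 91.2%, 91.2% and 73.5%, against 96.9%, 91.5% and 82.1% of all genes with a peak. The summit was among the 8001 strongest in all 3 replicates for 15 members (44.1%, against 55.7% of all genes), in 2 for 14 and in 1 for 5. Those 5 are mRpS7, mRpL54, mRpS17, mRpL27 and mRpS11. By the 500 bp promoter rule in place of the 100 bp match, mRpL54, mRpS17 and mRpL27 had such a peak in 2 replicates. The widest disagreement was at mRpS7, whose bacterial relative organises the head of the small subunit, with 82.3, 58.6 and 313 in replicates 1, 2 and 3. Replicate 3 there exceeded both others several-fold, and the coefficient of variation was 92.9%. Over the 20 members with a value in every replicate the median coefficient of variation was 26.5%, against 22.5% over 2832 genes.

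The threshold fell within a continuous run of signals. Just inside it were mRpL48 at 237, mRpS11 at 254 and mRpL35 at 258, and just outside were mRpL28 at 217, mRpS25 at 176 and mRpL36 at 155, with the lowest optimal signal at 220. In all 12 members had a pooled promoter peak below the optimal set. The other 9 were mRpL52, mRpL50, mRpL55, mRpL9, mRpS5, mRpL49, mRpL22, mRpL13 and mRpL14, from 135 at mRpL52 to 47.9 at mRpL14. Of these, mRpL55 starts head-to-head with ATPsynD, a subunit of ATP synthase.

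The remaining 27 members had no pooled promoter peak. Of them 11 had none in any list (15.1% of members, against 42.1% of all genes), namely mRpL1, mRpL4, mRpL11, mRpL12, mRpL30, mRpL33, mRpL45, mRpL46, mRpS9, mRpS34 and mRpS35. In bacteria L1, L11 and L12 form or anchor the flexible stalks by which the large subunit handles transfer RNA and elongation factors, and the genes of these 3 had no peak here. The stalk protein gene mRpL10 belongs to the other 16, which had a peak in at least 1 replicate list: mRpL3, mRpL10, mRpL15, mRpL21, mRpL32, mRpL37, mRpL38, mRpL39, mRpL40, mRpL42, mRpS18A, mRpS18C, mRpS28, mRpS29, mRpS30 and mRpS33. At mRpL10 the signals were 129 in replicate 1 and 157 in replicate 2, with summits at -152 and -165 bp from the start, yet the nearest pooled summit was 16104 bp away. At mRpL37 replicate 3 gave 257 and replicate 1 gave 35.0, with the nearest pooled summit 42929 bp away. At mRpL42 replicates 1 and 2 gave 95.6 and 94.9, at mRpS29 replicates 1 and 3 gave 108 and 120, and at mRpS18C replicates 1 and 2 gave 84.6 and 56.5, again with no pooled promoter peak. Across the genome 327, 335 and 328 of the 8001 strongest peaks of replicates 1, 2 and 3 had no pooled summit within 500 bp, or 4.09%, 4.19% and 4.10%, and the cause was not tested. Neither tko nor bonsai, which encode the mitochondrial relatives of bacterial S12 and S15 under other symbols, had an optimal or pooled promoter peak.

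The small subunit had promoter peaks at 15 of 26 genes (57.7%) and the large at 19 of 47 (40.4%). Their Wilson intervals overlap, at 39.0% to 74.5% and 27.6% to 54.7%. Replicates 1, 2 and 3 gave 15, 12 and 15 small subunit and 20, 20 and 14 large subunit members. The small subunit share was therefore the higher in each replicate, but within 200 bp of a TSS the counts were 9 of 26 and 16 of 47, which are nearly equal shares. The difference was not tested. Classed by number alone, members with a bacterial relative had peaks at 22 of 43 (51.2%) and the rest, called mitochondrion-specific, at 12 of 30 (40%). The intervals again overlap, and single members may be misplaced by this rule. Singled out for a role in decoding or at the stalk and transfer centre of the bacterial ribosome, mRpL2 and mRpS7 had an optimal peak, mRpS5 a weaker pooled one at 98.9, and mRpL3 none in the pooled list. These genes are examples and not a full list of such proteins.

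By chromosome arm, members had peaks at 8 of 12 on 2L, 8 of 12 on 2R, 7 of 17 on 3L, 9 of 21 on 3R and 2 of 11 on X. The members' shares on 2L, 2R, 3L and 3R were 66.7%, 66.7%, 41.2% and 42.9%. Those of all genes of these arms were 25.25%, 27.95%, 27.86% and 28.12%. On 3L and 3R the members' Wilson intervals, 21.61% to 63.99% and 24.47% to 63.45%, include the share of all genes. On X the members' 18.2% lay below the 30.7% of all genes of that arm, in contrast to the autosomal arms, where it lay above. With 11 genes the interval is wide, from 5.14% to 47.7%, and includes the share of all X genes. Counting any pooled peak turned the order, with 6 of 11 members (54.5%) against 51.7% of all X genes. The X-linked members with a peak are mRpL16 and mRpS14, the latter beside Naa15-16, an auxiliary subunit of an N-terminal acetyltransferase.

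Sequence words were counted on both strands in the 300-base promoter windows of all 73 members and of all genes. The GC box (GGGCGG) was found in 2 member windows (2.74%, against 5.97% of all genes) and the CACC box (CACCC) in 13 (17.8%, against 23.0%). The longer Sp/KLF word CACGCCC was found in 1 (1.37%, against 1.56%). Words of the Sp/KLF kind were thus no more frequent in these windows of members than in those of all genes. Member windows were poorer in G+C, with a median of 34.7% against 38% of all genes, and its part in the counts was not tested. The Dref element (TATCGATA), bound by the replication and growth factor Dref, was present in 15 members (20.5%, against 9.36%). It was at 6 of the 34 with a promoter peak (17.6%) and 9 of the 39 without (23.1%). Over all genes the element was in 13.9% of those with a promoter peak and 7.62% of those without. Its core CGATA, which lies inside the whole element, was in 43 (58.9%, against 47.4%). The M1BP word (GGTCACACT) was in 8 (11.0%, against 6.05%). The GAGA word (GAGAG) was in 12 (16.4%, against 29.7%). TATAAA was in 34 (46.6%, against 45.8%), the pyrimidine word CTTTT in 55 (75.3%, against 76.6%), and the NRF-1 word, whose mammalian factor drives nuclear genes for mitochondria, in 0 (against 0.724%). An absent match says only that those letters are not in the window.

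**Figure D4:**
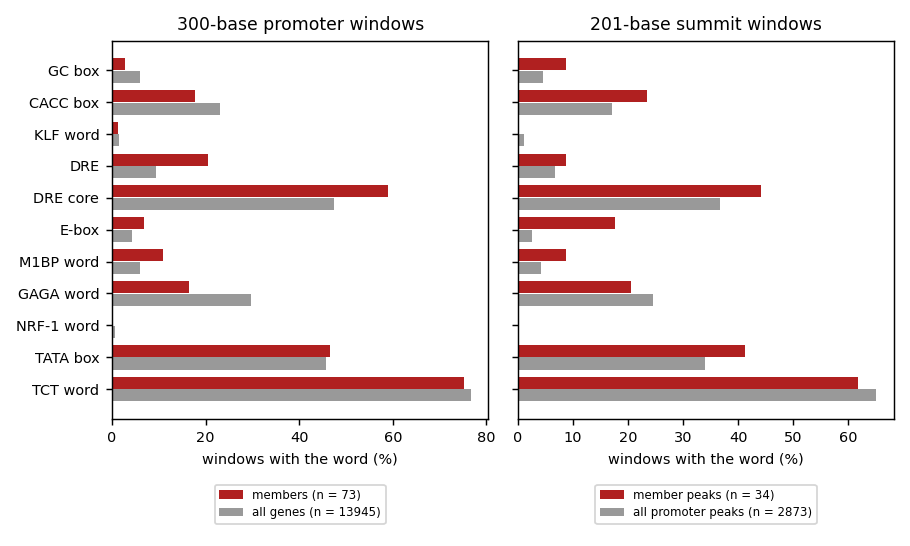
Percent of windows that hold each sequence word on either strand, in 300-base promoter windows (left, 73 members and all genes) and windows of 100 bp either side of summits (right, 34 member peaks and all promoter peaks). The Dref element is in 20.5% of member promoters against 9.36% of all, and the E-box is in 17.6% of member summit windows against 2.51% of all.

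Within 100 bp of the summits themselves, the E-box (CACGTG), the word bound by Myc with Max, was found at 6 of 34 members (17.6%), against 2.51% of all 2873 promoter summits. In promoter windows it was in 5 members (6.85%, against 4.2%), and all 5 were among the 34 with a promoter peak. Over all genes the E-box was in 4.75% of windows of genes with a promoter peak and 3.99% of those without. The 6 at summits are mRpL23, mRpL16, mRpS17, mRpL27, mRpS14 and mRpS11, of which only mRpL23 is among the strongest. GC boxes were at 3 summits (8.82%, against 4.52%), the CACC box at 8 (23.5%, against 17.1%) and the Dref element at 3 (8.82%, against 6.72%). Summit windows of members were low in G+C, with a median of 30.3% (24.4% to 54.7%) against 36.8%. Among the 7 strongest, only the window of mRpL23 held a GC box.

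The E-boxes at 5 of these summits are shown in 30 bases each, in the direction of the member, with the E-box in capitals, to let the flanks be compared.
mRpL23, chr3L:2373686-2373715, minus strand: tgttggacaaccCACGTGcttttacacggg
mRpL16, chrX:1890128-1890157, plus strand: attattgtgttcCACGTGcaatatggcaca
mRpL27, chr2L:4459768-4459797, minus strand: ttattagctaaaCACGTGacagatatatta
mRpS14, chrX:19480241-19480270, minus strand: cgcacactggcaCACGTGttcacgcgcttc
mRpS11, chr3R:17072636-17072665, plus strand: ttaaaacaagaaCACGTGaaaatagtcttc
The word lay 83, 60, 12, 56 and 79 bp from the summit in the same order, so only mRpL27's is close to it. For contrast, the 151 bases centred on the summit are shown for 4 of the strongest members, again with the Sp/KLF, Dref, E-box, M1BP and GAGA words in capitals.
mRpS23, chr2L:13835380-13835530, minus strand: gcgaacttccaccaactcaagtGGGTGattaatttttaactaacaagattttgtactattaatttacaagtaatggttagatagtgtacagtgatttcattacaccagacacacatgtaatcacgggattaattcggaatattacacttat
mRpL24, chr2L:4945411-4945561, minus strand: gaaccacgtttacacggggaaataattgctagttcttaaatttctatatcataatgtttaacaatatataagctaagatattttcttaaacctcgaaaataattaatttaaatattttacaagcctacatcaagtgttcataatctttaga
mRpL20, chr3L:13018061-13018211, minus strand: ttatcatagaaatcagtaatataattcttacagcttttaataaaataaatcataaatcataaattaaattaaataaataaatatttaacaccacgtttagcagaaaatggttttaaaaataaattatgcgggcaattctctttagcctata
mRpS2, chr2L:4850499-4850649, minus strand: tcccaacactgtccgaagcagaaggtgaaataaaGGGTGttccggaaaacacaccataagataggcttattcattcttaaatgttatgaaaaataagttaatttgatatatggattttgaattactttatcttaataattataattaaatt
These are A+T-rich runs, with G+C of 32.5%, 25.2%, 20.5% and 27.8%. A CACC box in reverse is the only word marked in mRpS23 and mRpS2, and none of the words was found in mRpL24 or mRpL20.

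Among other genes of mitochondrial gene expression, 8 of 26 translation and expression factors had a promoter peak (30.8%), near the 27.8% of all genes. In replicates 1, 2 and 3 their shares were 34.6%, 23.1% and 15.4%, against 30.2%, 29.4% and 23.7% of all genes. The strongest peak was at mTerf5, of the mitochondrial transcription termination factor family. Its pooled signal was 582, with 259, 113 and 209 in replicates 1, 2 and 3, a mean of 194 ± 74.2 (SD, n = 3). GatA, a subunit of the amidotransferase that makes glutaminyl transfer RNA, followed at 459, with 160, 146 and 152. mTerf3 had 317, mldr 269 and scu 268. The elongation factor genes mEFTu1, mEFTs and mEFG1 and the mitochondrial DNA packaging gene TFAM had no pooled promoter peak. Of 15 mitochondrial aminoacyl-tRNA synthetase genes 3 had a promoter peak (20%, interval 7.05% to 45.2%, against 27.8% of all genes). They were ArgRS-m at 415, CysRS-m at 352 and LeuRS-m at 277. Nuclear oxidative phosphorylation genes, taken by symbol pattern, had them at 23 of 87 (26.4%), near the 27.8% of all genes. Cytoplasmic ribosomal protein genes, taken likewise, had them at 77 of 93 (82.8%), with a median signal of 985. The Wilson intervals of the mitochondrial and cytoplasmic ribosomal proteins, 35.6% to 57.9% and 73.9% to 89.1%, do not overlap, and those of the mitochondrial ribosomal proteins and the translation factors (16.5% to 50%) do. No test of these differences was made.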

How the data were processed

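ChIP-seq peak lists of 3 biological replicates, the pooled list and the optimal set were used, with coordinates in dm6 per the labels. For a replicate's list the authors used its own alignment against 1 control alignment, and they derived the optimal set from the replicate and pooled lists by the irreproducible discovery rate, per the deposited text descriptions. Which aligner and peak caller they ran is not given in the sources used here. Each deposited signal is the authors' caller's value, with no stated scaling between lists, and it ranked peaks within a list. The deposited −log10 q value was not used for ranking, and the deposited summit offset gave each position. The replicate and pooled lists each end at 30000 lines, and the optimal set was found to equal the 8001 strongest pooled peaks. No list gives read counts. Library depth is therefore unknown, and intervals cover the counting of genes only.

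Genes came from Ensembl release 115 (BDGP6.54), with 13945 protein-coding genes and 19607 TSSs, and sequence from Release 6; every peak end lay within its arm. Promoter windows were cut from that genome in place of the RefSeq promoter table foreseen. The members and lists were chosen with earlier results of these data known. There is 1 group, so counts and spreads are given beside all genes and no test was run. A gene with several summits within 500 bp of its TSSs was represented by the strongest, at the TSS nearest to it. Replicate signal was that of the highest peak with a summit within 100 bp of the pooled summit. All members with an optimal peak are named, with replicate values for the 12 highest, and so are the 3 nearest the threshold on either side, all members without a pooled peak, stalk and decoding proteins, and the 5 highest of the translation factors. Of 33 symbols listed by hand for related genes, 5 were not found in the annotation and were left out. The counting functions were tested on simulated placements. Alternatives changed the promoter distance, the peak list, the assignment of shared summits, the TSS used, the replicates, the summit matching and the windows. The comparison with head-to-head genes was added after seeing the data. Software was matplotlib 3.10.9, scipy 1.17.1, pandas 2.3.3 and numpy 2.4.6 under Python 3.11.15.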

Additional observations from a re-analysis of the deposited data

How the results depend on the processing

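The 34 members with a promoter peak were 21 when the optimal set was cut to its stronger part and 12 when each summit counted only for its nearest TSS, both by construction stricter. Requiring a site to be shared by the other 2 replicates, with 1 replicate left out in turn, gave 21 to 26. Under each of these settings but the nearest TSS the members' share stayed above that of all genes. With 200 bp the count was 25 (34.25%, against 21.24% of all genes) and with 1000 bp 36 (49.32%, against 31.17%). With overlap of the interval it was 35 (47.95%, against 29.45%) and with the outermost TSS 34 (46.58%, against 25.2%). The large subunit count of 19 moved by over 1.5 times under 5 of 13 settings (6 with the nearest TSS) and the small subunit count of 15 under 2 of 13 (6 with the nearest TSS and 9 within 200 bp, where the large subunit count was 16). The median offset of -150.5 bp was -130 bp within 200 bp of a TSS, -133 bp in replicate 1 alone and -88.5 bp when signed to the nearest TSS of any gene; the replicate SD was 16.4 bp and the cause was not tested. For the replicate signals of the 12 named members, matching summits within 50 bp changed the mean most at mRpS6, from 298 to 251; leaving 1 replicate out cannot move a mean by more than its SD and is no sign of stability. Word counts moved in 9 of 22 alternatives, 7 of them in the smaller set of summit windows. The E-box was in 3 of the 73 member windows within 100 bp of the TSS, against 2.88% of all genes. No paired analysis was possible because there is 1 group. Lists that end at 30000 lines limit how weak a peak can be seen, and a gene without a peak is one without a call in these lists.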
